A study of Drosophila sechellia with 6 samples.

Results

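The 5.8S rRNA is a short RNA of the large ribosomal subunit, and its levels were compared between noni-fed and control-fed *D. sechellia*. All rows of the deposited gene table whose name begins with 5.8SrRNA were taken as copies of its gene, which gave 103 of 17273 rows. The table lists 1 value for each diet and gene, in FPKM, a read number scaled by length and by library size. Each value is pooled over 3 libraries. Adult females of strain 14021-0428.25, aged 0 to 3 days, spent 24 h either on instant food mixed with 1 g of rotten *M. citrifolia* (noni) fruit pulp or on the same food without pulp. Whole flies were used, 10 for each library, all reared at 20 degrees on cornmeal medium. Neither values of single libraries nor read counts are in the table, so no SD, counting interval or test over libraries can be given, and all differences below are descriptions of the pooled values. In whole flies, a lower value can come from fewer cells of a type or from less RNA per cell, and these cannot be told apart.

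The 5.8S rRNA is made by RNA polymerase I as a part of a long precursor that also holds the 18S rRNA and the large rRNA of the big subunit, and it is cut out of the spacers between them. Inside the ribosome it is paired with that large rRNA. The genes lie in tandem arrays of near-identical units, in *D. melanogaster* on the X and Y chromosomes. Mature rRNA carries no poly(A) tail, and the libraries were selected for poly(A), so the values describe rRNA that passed this selection. How far the selection removed rRNA in each library was not tested. A read from near-identical copies fits many places, and Bowtie2 by default reports 1 of its best placements, so the division of reads among copies is uncertain and sums over copies are given beside single values.

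The copies lay on 102 scaffolds of the build dsec_caf1. Scaffold 9794 held 2 of them, and 101 of the scaffolds held no other row of the table than 5.8S rRNA. The scaffold numbers ran between 204 and 13515. The end positions had a median of 1207 and were at 5031 or lower, except for GM26986 on scaffold 204 (12190 to 12368) and GM26991 on scaffold 294 (13545 to 13723). The locus was 179 nt long for 78 copies and 180 nt for 6, and GM27043 and GM27064 were 1 nt and 4 nt shorter than the commonest length. These 86, at most 4 nt short of the commonest length, are called full length below. The term refers to the annotated locus only, and how the locus relates to the mature RNA was not examined. GM27043 had 571 FPKM on noni and 1035 FPKM on control food, and GM27064 had 644 FPKM on noni and 1096 FPKM on control food. A further 10 copies had between 143 and 173 nt (intermediate length), 3 had 88 or 93 nt, and 4 were shorter than the reads of 65 nt. The rows GM26975 and GM27051 begin at the first base of their scaffolds.

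Of the 103 copies, 97 had values above 0 in both diets and carried the status OK of Cuffdiff. The remaining 6 carried the status NOTEST and are listed at 0 FPKM in both diets, and no copy was at 0 in 1 diet only. All 4 copies shorter than a read were among these 6, namely GM26975 and GM27031 with 30 nt, GM26948 with 35 nt and GM27062 with 50 nt. The other 2 were GM26992 with 154 nt, on scaffold 3043 (77 to 230), and GM27004 with 180 nt, on scaffold 4149 (1339 to 1518). A locus as long as the others was thus listed at 0 in 1 of the 86 full-length copies.

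In the libraries of both diets 5.8S rRNA was abundant, and most copies had lower values on noni. The FPKM of the 97 copies ranged from 14.5 to 2103 on noni, with a median of 718, and from 13.5 to 2072 on control food, with a median of 1163. Summed over all copies, the FPKM was 36.7% lower on noni. The copies made up 3.43% of the FPKM of all rows on noni and 5.07% on control food, and 91 of them on noni and 93 on control food were among the 1000 highest rows. On noni, 92 of the 97 copies were lower, where 44.7% of the 11310 rows with status OK were lower. At least 1.5-fold lower were 71 copies (73.2%), against 9.58% of the rows with status OK. At least 1.5-fold higher were 2 copies, against 5.59% of those rows. The log2 ratio of noni to control had a median of -0.69 over the copies, a value 1.61-fold lower, and 0.05 over all rows with status OK that had a ratio.

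**Figure D1:**
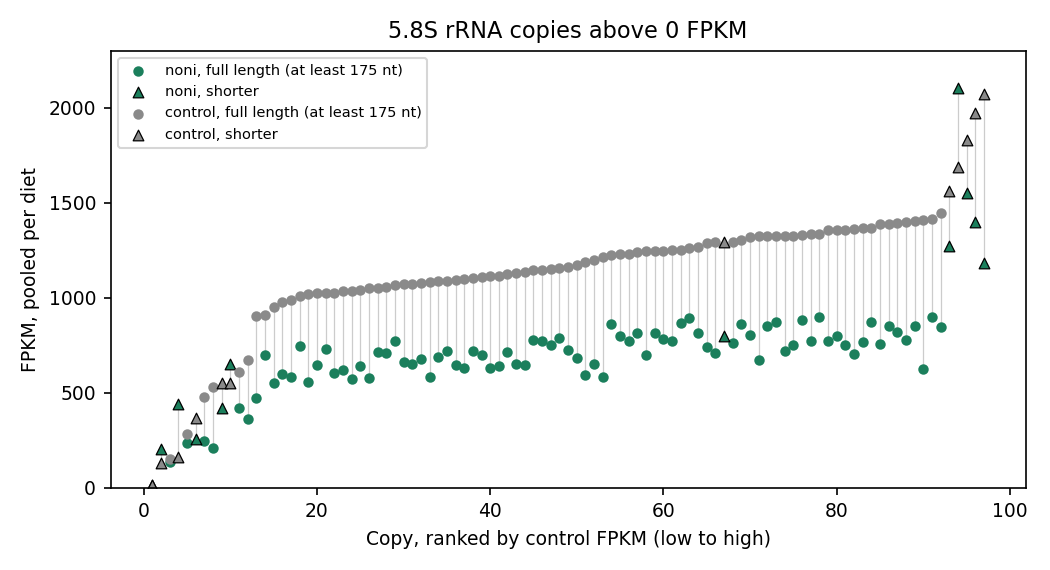
FPKM of each of the 97 copies above 0, on noni (green) and on control food (grey), with the copies ranked by control FPKM. Circles are full-length copies, triangles are shorter ones, and a grey line joins the values of a copy. The full-length copies lie below on noni throughout, while 5 of the shorter copies lie above.

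The full-length copies had a common direction. In all 85 of them with a value, the FPKM was lower on noni, with log2 ratios from -1.34 to -0.16 and an SD among copies of 0.18. Quartiles were -0.82 and -0.61 around a median of -0.72, and 69 of the copies (81.2%) were at least 1.5-fold lower. They held 85.1% of the copies' summed FPKM on noni and 88.9% on control food, and 95.3% of the difference between the diets. The 291 other rows with status OK and a mean of 500 to 1500 FPKM, a like level, had a median log2 ratio of -0.09. Their SD among rows was 0.51, and 180 of them (61.9%) were lower on noni, 9.97% at least 1.5-fold lower. Copies are not replicates of a diet, and they share their reads, libraries and base composition, so a small SD among them says nothing of the spread between libraries. Because reads divide among near-identical copies, the copies' ratios are not independent. Their shared direction and small SD are therefore not comparable with those of separate genes.

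Of the 78 copies of 179 nt, most had levels near each other. For 75 of them the values lay between 471 and 901 FPKM on noni and between 903 and 1445 FPKM on control food, a limit of 900 FPKM in control having been set after the values were seen. The highest was 1.91 times the lowest on noni and 1.60 times on control food. For these 75 copies the ranges of the diets did not overlap, but the limit itself set the lower end of the control range. Over all 78 copies the pooled values overlapped, at 137 to 901 FPKM on noni and 153 to 1445 FPKM on control food. The highest control value was that of GM27050 on scaffold 8404 (1136 to 1314), at 846 FPKM on noni and 1445 FPKM on control food. The highest noni value was that of GM27029 on scaffold 7309 (1269 to 1447), at 901 FPKM on noni and 1338 FPKM on control food. The lowest of the 75 in both diets was GM26957 on scaffold 11278 (725 to 903), at 471 FPKM on noni and 903 FPKM on control food. Copies high in one diet tended to be high in the other. The Pearson r was 0.85 and the Spearman rho 0.71 between the noni and control values across the 78 copies. Within each diet, all copies were measured in the same libraries.

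The other 3 copies of 179 nt were far lower in both diets. GM27042 on scaffold 8037 (1336 to 1514) had 137 FPKM on noni and 153 FPKM on control food. GM27056 on scaffold 8816 (903 to 1081) had 247 FPKM on noni and 476 FPKM on control food, and GM26954 on scaffold 11086 (240 to 418) had 360 FPKM on noni and 674 FPKM on control food. Their log2 ratios were -0.16, -0.95 and -0.90, so that GM27042 changed least among the full-length copies.

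Copies with 1 base more, at 180 nt, were lower and more spread. GM26977 had 698 FPKM on noni and 1245 FPKM on control food, and GM26952 had 675 FPKM on noni and 1079.8 FPKM on control food. Both lay within the range of the 75 copies above. GM26984 had 422 FPKM on noni and 612 FPKM on control food, GM27041 had 238 FPKM on noni and 282 FPKM on control food, and GM27004 was listed at 0. GM27057 on scaffold 8843 (53 to 232), at 209 FPKM on noni and 529 FPKM on control food, had the lowest log2 ratio of all copies, at -1.34. Thus 4 of the 6 copies of 180 nt were under 700 FPKM on control food, against 3 of the 78 copies of 179 nt. Among the 6 full-length copies above 0 but under 700 FPKM on control food, a limit set after the values were seen, the SD of the log2 ratio was 0.45 with a median of -0.72, and among the other 79 it was 0.15 with a median of -0.72. The low copies scattered more widely around the same median.

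A log2 ratio of -1 or lower was found for 4 copies, all full length. Besides GM27057 these were GM26991, GM26950 and GM27023. GM26991, on the second-lowest scaffold number, had 624 FPKM on noni and 1409 FPKM on control food, with a log2 ratio of -1.18. GM26950 on scaffold 10846 (468 to 646) had 582 FPKM on noni and 1215 FPKM on control food (-1.06), and GM27023 on scaffold 6692 (1329 to 1507) had 593 FPKM on noni and 1187 FPKM on control food, just past the limit. On control food GM26991 was near the top of the copies of 179 nt and the other two near their median, and on noni all 3 were in the lower part of the range.

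**Figure D2:**
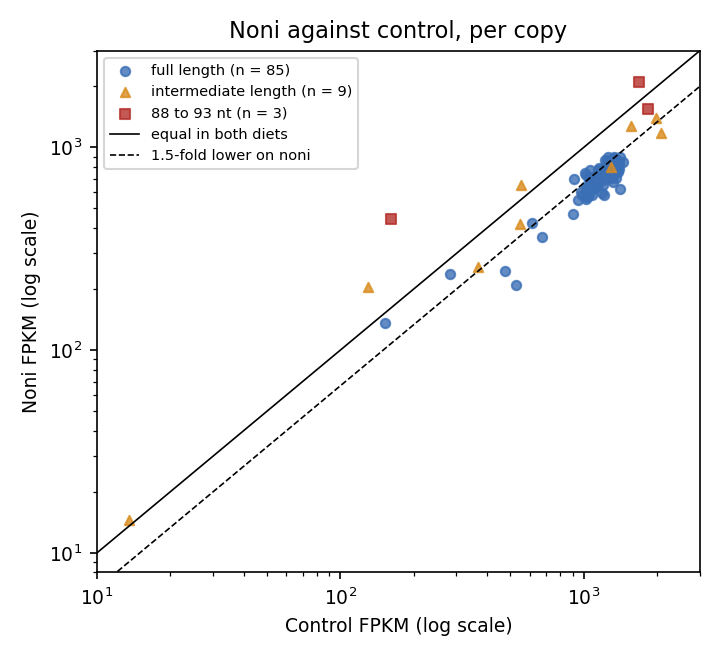
Noni FPKM against control FPKM of the 97 copies above 0, both on log scales, with marks for the length of the locus. The solid line marks equal values and the dashed line values 1.5-fold lower on noni. Most full-length copies form a dense group at or under the dashed line, and the copies above the solid line are all shorter than full length.

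Shorter copies did not share this pattern. Of the 12 that were shorter than full length and above 0, 7 (58.3%) were lower on noni and 5 higher. Of all rows with status OK, 44.7% were lower. At least 1.5-fold lower were 2 of the 12 (16.7%), against 9.58% of all rows with status OK. The median log2 ratio of the 12 was -0.27 with an SD among copies of 0.65. All 5 copies that were higher on noni belonged to this class. GM27061 had the highest log2 ratio of all, at 1.46, with 441 FPKM on noni and 161 FPKM on control food. It is the piece of 88 nt on scaffold 9794 (1305 to 1392), and GM27062, listed at 0, follows it without a gap, so that both together span 138 nt. GM27055 with 143 nt had 205 FPKM on noni and 130.2 FPKM on control food, with a log2 ratio of 0.66. These are the 2 copies that were at least 1.5-fold higher on noni.

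The remaining 3 were higher by less. GM27018 on scaffold 6080 (1002 to 1094), with 93 nt, had the highest noni value of all copies, 2103 FPKM, against 1687 FPKM on control food (log2 ratio 0.32). GM27059 with 155 nt had 653 FPKM on noni and 551 FPKM on control food (0.24). GM27038 on scaffold 7643 (110 to 282), with 173 nt, had the lowest values above 0, at 14.5 FPKM on noni and 13.5 FPKM on control food (0.10). Whether so small a difference exceeds the spread between libraries cannot be said from pooled values.

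Among the shorter copies that were lower on noni, GM27028 on scaffold 7301 (1557 to 1719), with 163 nt, had the highest control value of all copies, at 1183 FPKM on noni and 2072 FPKM on control food, with a log2 ratio of -0.81. GM27060 with 145 nt had 801 FPKM on noni and 1294 FPKM on control food (-0.69). Both log2 ratios lay between the quartiles of the full-length copies. GM26962 with 165 nt had 1397 FPKM on noni and 1974 FPKM on control food (-0.50), and GM27051 with 152 nt had 258 FPKM on noni and 366 FPKM on control food (-0.51). GM27058 with 173 nt (420 FPKM on noni and 549 FPKM on control food), GM26989 with 158 nt (1270.2 FPKM on noni and 1563 FPKM on control food) and GM27012 with 93 nt (1549 FPKM on noni and 1831 FPKM on control food) had log2 ratios of -0.39, -0.30 and -0.24. By level, the 5 highest control values of all copies and also the lowest value above 0 were found among these 12. FPKM is scaled by length, so a high value at a short locus need not mean more reads. Multiplied by locus length in kb, the median on control food was 208 for full-length copies and 157 for those of 88 or 93 nt. On noni the same medians were 129 and 144. These products are not read counts, because the values were also corrected for bias and the length used in scaling is not listed. The median FPKM of the full-length copies was 0.99 times that of the shorter ones on noni and 1.26 times on control food. The control value turned with the limit, to 0.81 times when copies of 170 nt or more were counted as full length.

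**Figure D3:**
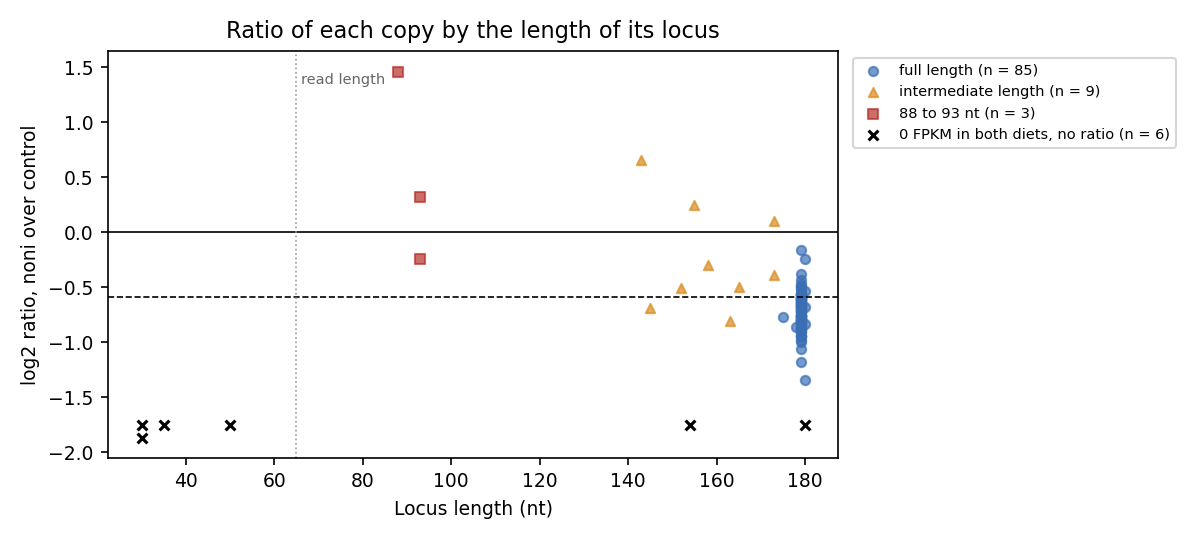
Log2 ratio of noni to control for each copy against the length of its locus in nt. The solid line marks no difference, the dashed line values 1.5-fold lower on noni, the dotted line the read length, and crosses at the bottom mark the 6 copies at 0 FPKM, which have no ratio. Every full-length copy with a ratio lies below 0, and the shorter copies lie on both sides.

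Of the other rRNA classes, 18S rRNA was higher on noni, whereas 5S rRNA was lower, as the 5.8S copies were. The 18S rRNA, the RNA of the small subunit, is made from the same precursor. Scaffold 204 is the only scaffold of these that also holds an 18S row, GM27729 (13060 to 15056), which begins 691 bases beyond the end of GM26986. There GM26986 had 849 FPKM on noni and 1403 FPKM on control food (log2 ratio -0.72), and GM27729 had 4183 FPKM on noni and 3751 FPKM on control food (0.16). The 6 rows of 18S rRNA together were 1.18 times as high on noni, and their summed FPKM was 0.598 of that of the 5.8S copies on noni and 0.320 of it on control food. FPKM is scaled for length, and the median 18S row was at 10.2 times the median 5.8S copy on noni and at 5.29 times on control food. The 5S rRNA, which RNA polymerase III makes from separate genes, was lower on noni in 25 of its 26 rows with status OK. At least 1.5-fold lower were 22 of them (84.6%), with rows at 0 on noni counted by direction. Over all rows with status OK these shares were 44.7% and 9.58%. The 5S rows had low values, with a median of 32.1 FPKM on noni and 148 FPKM on control food. The 5.8S copies above 0 had medians of 718 FPKM and 1163 FPKM. The median log2 ratio of 5S rRNA was -1.85 over the 19 rows above 0 in both diets, which leaves out 7 rows at 0 on noni. Other rRNAs were not analysed here.

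The copies were also set beside other short loci. Between 88 and 180 nt the table holds 114 other rows with status OK that are not 5S rRNA, of which 80 are not named as RNA genes, 20 are snoRNA and 12 are snRNA genes. Their median log2 ratio was -0.07, with 58 lower and 56 higher on noni, and 23 (20.2%) were at least 1.5-fold lower and 35 at least 1.5-fold higher. The SD among these rows was 1.00. These 114 rows scattered more than the 5.8S copies of full length and had no common direction. They were not matched in level, and the 5.8S copies can share reads. Their median on control food was 139 FPKM, against 1163 FPKM for the full-length copies. Of the 123 snoRNA rows with status OK, of any length, 62.6% were lower on noni, against 44.7% of all rows with status OK. Their median log2 ratio was -0.37 with an SD among rows of 1.02. At least 1.5-fold lower were 48 (39.0%), and 25 were at least 1.5-fold higher. Over all rows with status OK, 9.58% were at least 1.5-fold lower and 5.59% at least 1.5-fold higher. The summed FPKM of the snoRNA rows was 1.02 times as high on noni.

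**Figure D4:**
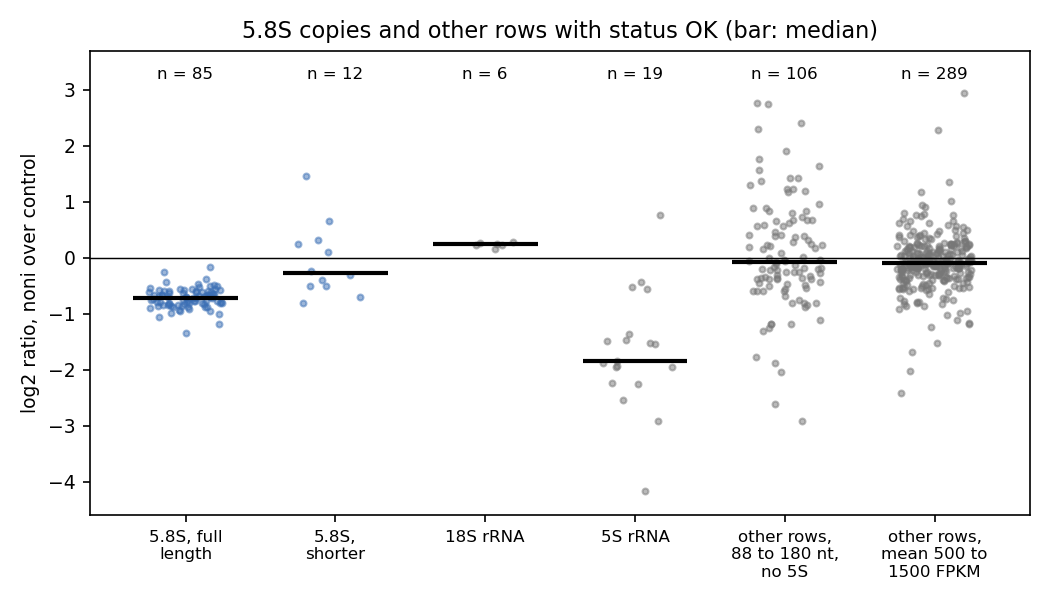
Log2 ratios of noni to control for 5.8S copies (blue) and other rows with status OK (grey), where each point is a row above 0 in both diets and bars are medians. The medians were -0.72 for full-length 5.8S copies, -0.27 for shorter ones, 0.24 for 18S rRNA, -1.85 for 5S rRNA, -0.07 for other rows of 88 to 180 nt and -0.09 for other rows of 500 to 1500 FPKM.

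Few genes for ribosome synthesis could be matched by name, so no median is given for them. Of 17 names for transcription by RNA polymerase I, only *Rpb6* (GM10803), a subunit shared by the RNA polymerases, was matched, with 195 FPKM on noni and 199 FPKM on control food. Of 32 names for processing of the precursor, 3 were matched, and none was past 1.5-fold. The log2 ratio was -0.30 for *NHP2* (GM24527) and -0.19 for *hoip* (GM17636), proteins of small nucleolar RNPs, and 0.07 for *CG6724* (GM11446). Of 11 ribosomal proteins listed as near the 5.8S rRNA, *RpL39* (GM18276), a small protein at the exit tunnel, was matched, with 22839 FPKM on noni and 35140 FPKM on control food (-0.62).

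By name alone, 11 rows were ribosomal protein genes, all lower on noni, where 44.7% of the rows with status OK were lower. Only *RpL39* was at least 1.5-fold lower, against 9.58% of the rows with status OK. *RpL10Ab* (GM25301) had 2861 FPKM on noni and 4066 FPKM on control food (-0.51). GM10197, matched to *RpL34a* and *RpL34b*, had 1003 FPKM on noni and 1380 FPKM on control food (-0.46). *RpS18* had 3747 FPKM on noni and 4869 FPKM on control food (-0.38). The smallest difference was that of *RpL13A* (GM10821), at 3417 FPKM on noni and 3773 FPKM on control food (-0.14). The names came from the table and from a shortened list of orthologs in which genes called changed are over-represented. These rows are therefore no fair sample of the ribosomal proteins.

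Marker genes were checked against the labelled sex. Of 8 names of female genes, 7 were matched and had between 13.6 and 23781 FPKM in the pooled values. Of 19 names of male reproductive genes, 9 were matched, and none was above 0.811 FPKM in either diet. The female markers were themselves higher on noni in all 7 cases. At least 1.5-fold higher were 6 of them, against 5.59% of the rows with status OK. Among the 6 was *Yp1* (GM11404), a yolk protein gene, at 23781 FPKM on noni and 13415 FPKM on control food. The names were matched as for the ribosomal proteins, so these markers are no fair sample of female genes either. Whether the higher values of the female markers bear on the lower 5.8S values was not tested. Over the whole table without 5.8S rRNA the summed FPKM was 0.954 times as high on noni.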

How the data were processed

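RNA of whole adult females was measured by RNA-seq in 3 libraries per diet, grouped by the diet in the labels. Per the labels and methods, the authors used FastQC for read quality, Bowtie2 with default settings for mapping (genome dsec_caf1) and Cuffdiff for quantification against Ensembl release 42. The deposited FPKM values were normalized by Cuffdiff's geometric method, corrected for bias and library size, and pooled per diet. The table's columns of fold changes, test statistics, p-values, q-values and calls were not used. Without library values or counts, no model could be fitted and the depth behind a value is unknown.

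Copies were found by the 5.8SrRNA prefix. Log2 ratios of noni to control were computed without a pseudocount for rows above 0 in both diets, and a fold of 1.5 was taken as the limit, a row at 0 in 1 diet being counted by its direction. Locus starts count from 0 and were raised by 1. Members and lists were chosen with earlier results of these data known. Named copies were those at the extremes of level, ratio and length, all higher on noni, all at 0 and those on scaffold 9794. Copies described beyond these, such as GM26991, GM26986 and the low copies of 179 nt, were picked after their values were seen. Symbols were matched through names in the table and in supplementary ortholog columns. Alternatives were a pseudocount, status OK only, a minimum of 100 FPKM, centring, full-length copies, 1 copy per scaffold, length weighting and other limits. The calculation was tested on simulated data. The work was done in Python 3.11.15 (pandas 2.3.3, numpy 2.4.6, scipy 1.17.1), with matplotlib 3.10.9 for plots.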

Additional observations from a re-analysis of the deposited data

How the results depend on the processing

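The median log2 ratio over the copies, -0.69, lay between -0.74 and -0.68 under all 7 alternatives run, and the ratio of summed FPKM, 0.633, lay between 0.607 and 0.633 under all 4 run. The number of copies lower on noni was 92 under both alternatives. The number at least 1.5-fold lower, 71, was 77 after centring on the median of the rows with status OK, and 4 at a fold of 2. The SD of the log2 ratio among copies, 0.35, was 0.18 for full-length copies only, since the 12 shorter copies were left out. The share of rows with status OK at least 1.5-fold lower was 11.7% with a mean of at least 100 FPKM and 8.42% with 1 FPKM added. The median control FPKM of full-length copies, 1.26 times that of shorter ones, was 0.81 times with the limit at 170 nt, where the 2 longest of the shorter copies counted as full length. No paired analysis was possible because the table holds 1 pooled value per diet and none of a single library. For the same reason no library could be left out. An alternative with 1 copy per distinct sequence was not run because no genome of this build was used here, and medians of the lists of ribosome genes were not computed because under 80% of the names matched.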
